A study of Cavia porcellus with 35 samples.

Results

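Ribosomal protein genes encode the proteins of the cytosolic ribosome, and 53 of them were found among the 12100 gene symbols that the 4 count tables list in all. They were picked by their symbols, with earlier results of these data known. Any symbol that starts with RPL or RPS followed by a digit was taken, with RPSA and the stalk proteins RPLP0 to RPLP2 where listed, and the RPS6K kinases and pseudogene symbols were not. Of these 53 genes, 20 encode small subunit proteins, 26 encode large subunit proteins and 7 are paralogs or other symbols outside the canonical lists. Among the 7, RPL36A-HNRNPH2 is a joint symbol that holds the name of the large subunit gene RPL36A. It was not counted with the 26. A further 31 canonical symbols, including RPSA, RPS6 and the stalk proteins, were not analysed here. Reads of paralogs and pseudogene copies can be shared between genes, so single gene levels carry that uncertainty. The tables for F1, F2 and F3 females and F1 males list 52, 51, 52 and 53 of the genes, and 51, 50, 52 and 53 of them passed the filter on low counts.

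RNA was sequenced from the prefrontal cortex of 35 guinea pigs at postnatal day 40, with 1 library per animal. F1 animals were the offspring of pregnant guinea pigs given repeated courses of betamethasone, a synthetic glucocorticoid (sGC, called Beta in the labels), or saline (Control) in late gestation. F2 and F3 females descended from them through F1 and F2 males mated with non-experimental females, so that the F2 and F3 animals received no drug themselves. There were 4 control and 4 sGC females in each generation, and 5 control and 6 sGC F1 males. The methods describe punches of the medial prefrontal cortex, the labels give prefrontal cortex as the source, and the extraction text of the labels names a punch of another region, the paraventricular nucleus. RNA yield and quality decided which animals were sequenced, and no litter gave more than 1 of the females.

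The cytosolic ribosome joins a small subunit, which decodes the mRNA, to a large subunit, which forms peptide bonds. Its proteins are made in matched amounts from many short, abundant mRNAs. Most of these mRNAs begin with a terminal oligopyrimidine (TOP) motif, through which mTOR signalling and the RNA-binding protein LARP1 adjust their translation and stability together. Every cell type of the cortex expresses them, and in neurons part of this mRNA pool is carried into axons and dendrites.

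Libraries held 12819964 to 31763585 reads assigned to genes, and single ribosomal protein genes had between 3 and 20781 reads in an animal. Levels are given as CPM, read counts scaled to a common library size by TMM scaling within a table, and are not compared between tables or between genes. The tissue was checked with marker genes. Cortical excitatory neuron genes were abundant in most animals, while the paraventricular nucleus genes OXT, AVP and CRH did not exceed 4.09 CPM in any table that lists them. The whole list of hypothalamus genes, of which 5 or 6 were tested in a table, summed to at most 26.7 CPM in an animal. The F3 groups differed in cortical markers, as given below, and the F1 female controls stood apart. SLC17A7, the vesicular glutamate transporter of cortical neurons, was at 989, 317, 171 and 240 CPM in the 4 controls and at 1313, 1234, 884 and 3575 CPM in the 4 sGC females. PPP1R1B, a marker of striatal neurons, was at 1280, 242, 424 and 1177 CPM in the controls and at 89.6, 81.8, 175 and 288 CPM in the sGC females. Controls 2, 3 and 4 were thus low in a cortical marker, and controls 1 and 4 were highest in a striatal one. The number of genes that fell in F1 females, the interaction counts, the shared sign pattern and the related lists are given with and without these animals, and the values of single genes with all animals.

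F1 females were compared first, to ask how prenatal sGC exposure related to ribosomal protein mRNA. The summed reads of these genes took 1.33, 1.37, 1.40 and 1.43% of all reads in the 4 controls and 1.16, 1.17, 1.02 and 1.12% in the 4 sGC animals. Every sGC female lay below every control. On average the share was 1.38 ± 0.0433% in controls and 1.12 ± 0.0665% in sGC females (SD, n = 4 each), so the sGC mean was 80.7% of the control mean. This share was taken without TMM scaling. With it, the summed level was 13448 ± 361 CPM in controls and 11492 ± 682 CPM in sGC females, a smaller difference in proportion. In the other tables the groups overlapped, with 1.16 to 1.38% and 1.16 to 1.52% in F2 control and sGC females, 1.15 to 1.41% and 1.09 to 1.22% in F3 females, and 0.893 to 1.06% and 0.944 to 1.08% in F1 males.

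**Figure D1:**
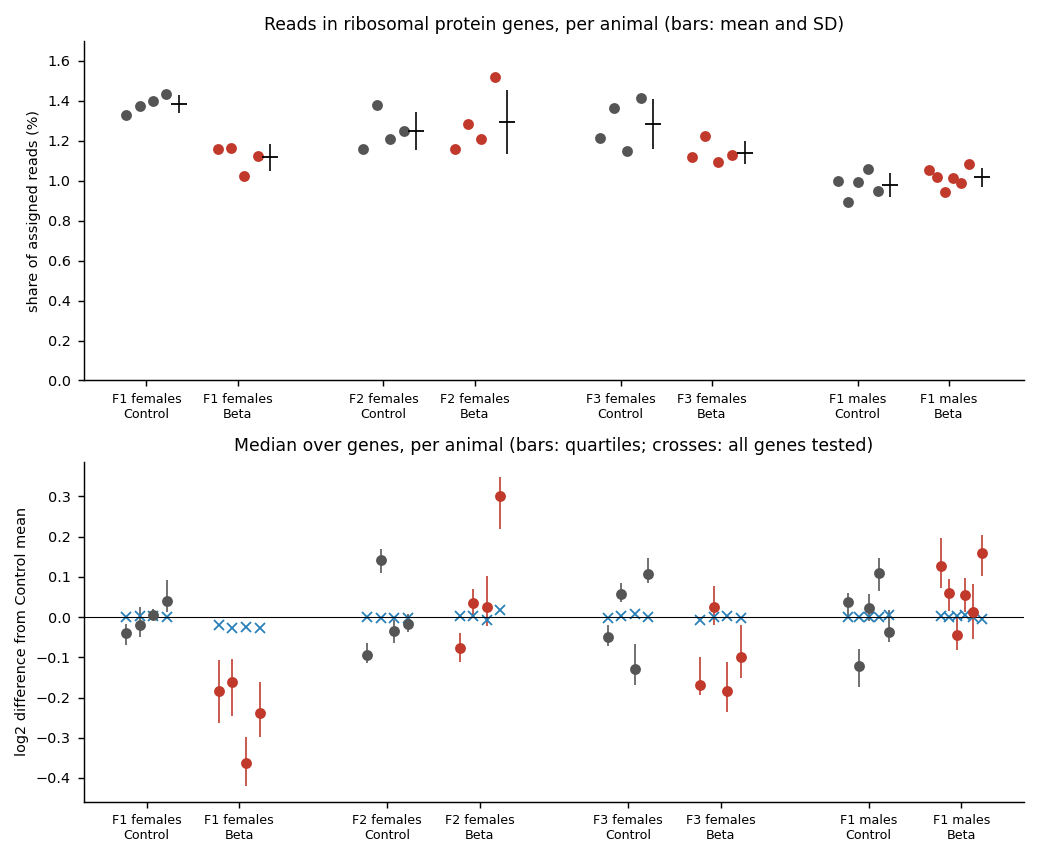
The upper panel plots the share of assigned reads (%) in ribosomal protein genes for each animal, grey for control and red for sGC (Beta), with the mean and SD of each group beside the points. The lower panel plots, for each animal, the median log2 difference of the ribosomal protein genes from the control mean of their table with quartile bars, and blue crosses mark the same median over all genes tested. The 4 F1 sGC females sit between -0.36 and -0.16, below all 4 of their controls, a range that F3 sGC animals 1 and 3 also reach. The crosses stay near 0 in every animal, which TMM scaling is built to give.

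In F1 females, 33 of the 51 ribosomal protein genes tested fell in sGC animals and 0 rose (edgeR quasi-likelihood test, FDR under 0.05 over all genes). Among all 11268 genes tested, 7.33% fell and 9.21% rose (826 and 1038 genes, or 1088 and 803 with upper-quartile scaling, under which 36 ribosomal protein genes fell and 0 rose). At an unadjusted p under 0.05, 41 genes were lower and 0 were higher, against 17.8% and 16.4% of all genes tested. The log2 fold changes ran from -0.85 to 0.02 with a median of -0.23, against -0.03 over all genes tested, and 50 of 51 were negative. In 39 of the genes every sGC animal was below every control, a separation found in 11.2% of all genes tested, and in 0 was every sGC animal above every control, as in 12% of all genes tested. The small subunit accounted for 16 calls among 20 genes (median -0.28) and the large subunit for 17 among 26 (median -0.22). None of the 5 tested genes outside the canonical lists passed (edgeR quasi-likelihood test, with 1 of them lower at an unadjusted p under 0.05, and 0 called by DESeq2 among RPS27L, RPL22L1, RPL26L1 and RPS19BP1). The remaining gene of the 5, RPL36A-HNRNPH2, had a log2 fold change of -0.03. Because the samples were bulk tissue, fewer cells of a type and less mRNA per cell cannot be told apart.

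RPS28, a small subunit protein at the exit of the mRNA channel, was at 220, 217, 258 and 325 CPM in F1 control females. In sGC females it was at 161, 121, 131 and 154 CPM. The groups did not overlap, and the level was highest in control 4. RPS28 fell by 0.85 on the log2 scale (SE 0.14, edgeR quasi-likelihood FDR = 0.0082), the lowest value among the 51 genes. RPS15, which sits in the small subunit head and is needed for export of its precursor from the nucleus, was at 251, 279, 267 and 259 CPM in controls and at 217, 203, 181 and 196 CPM in sGC females. All sGC animals were below all controls, and RPS15 fell by 0.41 (SE 0.06, edgeR quasi-likelihood FDR = 0.0069). RPS16, which contacts the tRNA that holds the growing peptide, was at 51.1, 53.1, 55.3 and 58.3 CPM in controls and at 40.8, 43.8, 36.3 and 40.6 CPM in sGC females. The groups were again apart, with a fall of 0.43 (SE 0.07, edgeR quasi-likelihood FDR = 0.0077).

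Other small subunit genes that passed fell less. RPS20, another protein of the small subunit head, fell by 0.35 (SE 0.08) and RPS19, the gene most often mutated in Diamond-Blackfan anaemia, fell by 0.33 (SE 0.08), with edgeR quasi-likelihood FDRs of 0.0201 and 0.0268. RPS9, a protein near the entry of the mRNA channel, fell by 0.23 (SE 0.06, edgeR quasi-likelihood FDR = 0.0395). RPS27A, whose product is made as a fusion with ubiquitin, was at 331, 337, 336 and 344 CPM in controls and at 311, 305, 270 and 298 CPM in sGC females. Its groups did not overlap and it fell by 0.19 (SE 0.06, edgeR quasi-likelihood FDR = 0.048), among the smallest changes that passed. RPS3, also a protein of the mRNA entry site, had few reads. It averaged 7.32 ± 1.52 CPM in control and 5.21 ± 0.677 CPM in sGC females (SD, n = 4 each), and the groups overlapped (log2 fold change -0.49, SE 0.18, edgeR quasi-likelihood FDR = 0.0941). RPS4X, encoded on the X chromosome in mammals, had the value closest to 0 among the small subunit genes. It was at 127, 128, 128 and 127 CPM in controls and at 134, 129, 117 and 123 CPM in sGC females, so that the control values lay within the sGC range (log2 fold change -0.02, SE 0.05, edgeR quasi-likelihood FDR = 0.828).

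In the large subunit, RPL28, a protein that budding yeast lacks, changed most. It was at 135, 129, 144 and 159 CPM in controls and at 112, 102, 98.2 and 104 CPM in sGC females. No values overlapped, and RPL28 fell by 0.45 (SE 0.07, edgeR quasi-likelihood FDR = 0.0077). RPL27, another Diamond-Blackfan anaemia gene, fell by 0.31 (SE 0.08, edgeR quasi-likelihood FDR = 0.0299). RPL35, which lies near the exit of the peptide tunnel, fell by 0.23 (SE 0.06, edgeR quasi-likelihood FDR = 0.0372). RPL4, which lines that tunnel, was at 491, 535, 515 and 507 CPM in controls and at 463, 470, 416 and 449 CPM in sGC females. Its groups were apart by a small margin, and it fell by 0.19 (SE 0.06, edgeR quasi-likelihood FDR = 0.0488).

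RPL22, an RNA-binding protein on the surface of the large subunit, was at 70.3, 74.0, 73.1 and 73.9 CPM in F1 control females and at 67.7, 62.8, 59.3 and 63.6 CPM in sGC females. The sGC values were all lower, by 0.20 on the log2 scale (SE 0.05, edgeR quasi-likelihood FDR = 0.0388). Its paralog RPL22L1 overlapped between the groups (log2 fold change -0.21, SE 0.08, edgeR quasi-likelihood FDR = 0.0903). RPL11, which binds MDM2 when ribosome assembly is disturbed, did not overlap but missed the threshold (log2 fold change -0.19, SE 0.06, edgeR quasi-likelihood FDR = 0.0776). RPL3, a protein close to the site of peptide bond formation, had a log2 fold change of -0.12 and overlapped. RPL26L1, a paralog of RPL26, and RPS19BP1, named for its binding to RPS19 and not itself a ribosomal protein, had log2 fold changes of 0.02 and -0.00. RPS27L, a paralog of RPS27, was at 1.69 to 2.56 CPM in controls and 1.37 to 2.01 CPM in sGC females, and RPL3L, a muscle paralog of RPL3, did not pass the filter on low counts.

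**Figure D2:**
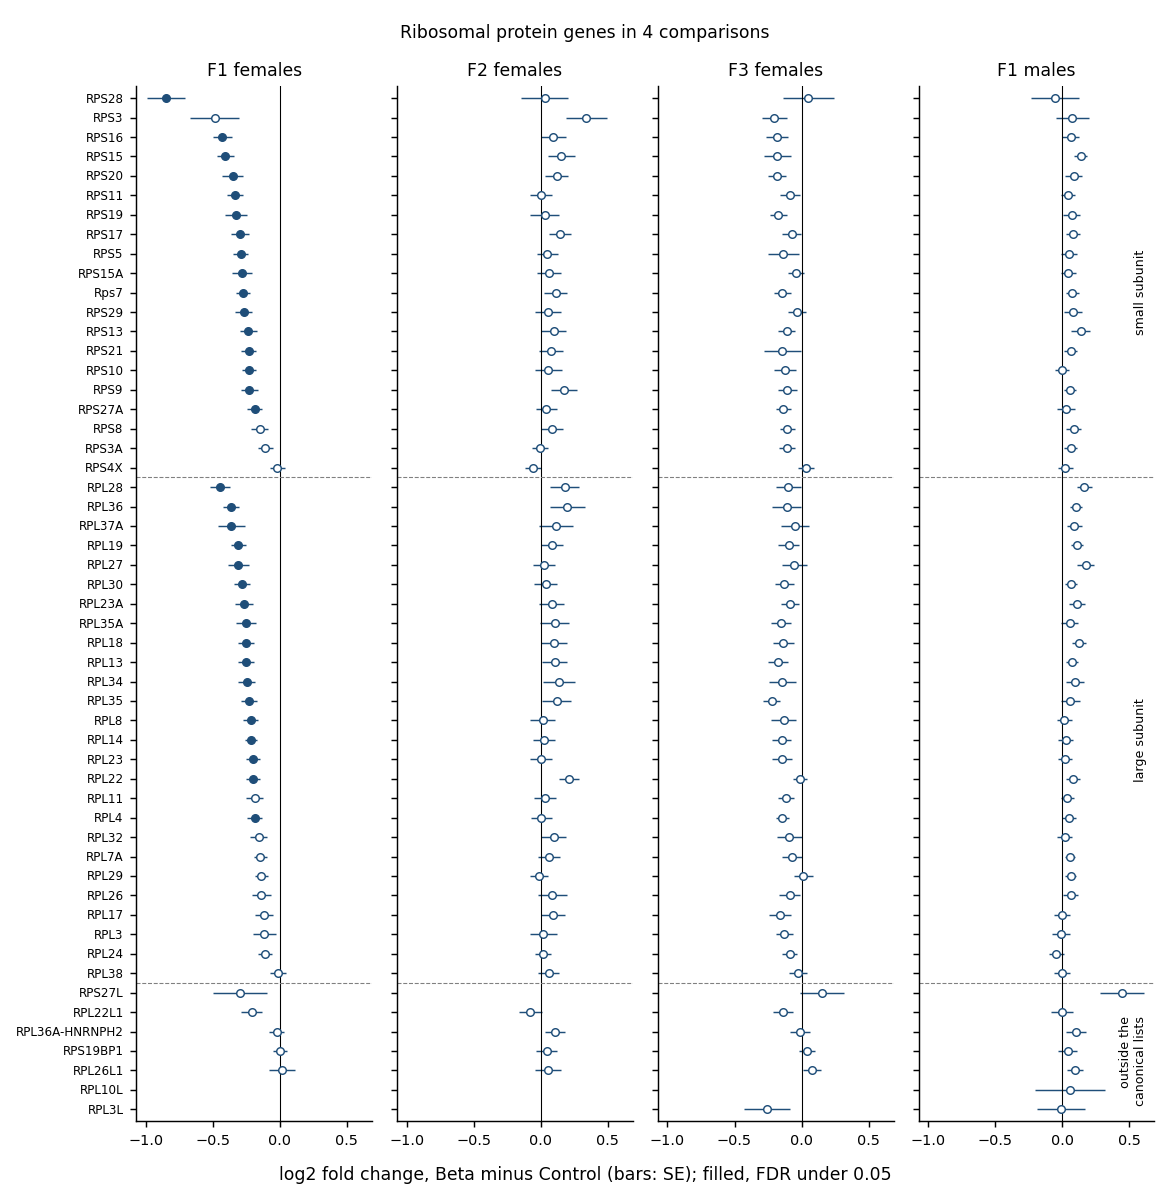
Log2 fold changes (Beta minus Control) of each ribosomal protein gene with SE bars, 1 panel for each table, ordered by subunit and by the value in F1 females, with filled points where the edgeR quasi-likelihood FDR was under 0.05. The filled points are the 33 genes that fell in F1 females, and the open points of F2 females and F1 males lie mostly to the right of 0 and those of F3 females mostly to the left.

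The F1 female count depended on which animals were used. With 1 animal left out at a time the median stayed between -0.25 and -0.20, but the number of genes that fell dropped from 33 to 6 without control 3, 11 without control 4, 20 without control 2, 16 without sGC animal 1, 18 without sGC animal 3 and 15 without sGC animal 4. The number was 25 without control 1 and 30 without sGC animal 2. Over all genes the share that fell went from 7.33% to 1.86% without control 3, 3.66% without control 4 and 4.81% without control 2. This share was 2.66, 4.18 and 4.12% without sGC animals 1, 3 and 4. It was 7.62% without control 1 and 5.83% without sGC animal 2. RPS28, RPS15, RPS16 and RPL28 passed in all 8 of these fits, RPL22 and RPL4 in 1 and RPS27A in 0. Without controls 1 and 4, 8 genes fell (median -0.20, 49 of 51 negative), against 6.6% of all genes tested. Without controls 2, 3 and 4, which leaves control 1 alone and takes it to vary like the sGC animals, 0 genes passed in edgeR's quasi-likelihood test (0.42% of all genes fell, and DESeq2 was not run on these animals), 10 were lower and 0 higher at an unadjusted p under 0.05, and 45 of 51 were negative with a median of -0.19.

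Genes of other cell types moved with the same groups in F1 females. Of 6 microglia genes tested 5 fell (edgeR quasi-likelihood FDR under 0.05), and their summed level was 255 to 304 CPM in controls and 188 to 210 CPM in sGC females, without overlap. TYROBP, a signalling adaptor of microglia, was at 20.4 to 21.4 CPM in controls and 13.0 to 16.3 CPM in sGC females. Striatal genes fell in 5 of 8 cases, with summed levels of 594 to 2710 and 249 to 628 CPM. Astrocyte genes fell in 3 of 8 cases, with summed levels of 6651 to 7571 and 6282 to 6922 CPM. Inhibitory neuron genes fell in 2 of 8 cases and endothelial genes in 1 of 6. The 8 oligodendrocyte genes overlapped between the groups (4761 to 16208 and 3737 to 7607 CPM, 0 called in edgeR's quasi-likelihood test and 3 lower at an unadjusted p under 0.05; other tools were not counted for this list). Their part in the result was not tested, and tissue makeup cannot be told apart from sGC exposure in these 8 animals.

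F2 females were compared to ask about the offspring of exposed fathers. No ribosomal protein gene passed (0 of 50 in edgeR's quasi-likelihood test, the likelihood ratio test and DESeq2). Of all genes tested, 0.278% passed in the quasi-likelihood test. The likelihood ratio test called 2.83% of all genes higher and 1.97% lower, and DESeq2 called 2.43% and 1.82%. At an unadjusted p under 0.05, 2 genes were higher and 0 lower, against 8.72% and 7.35% of all genes tested. Only RPL22 had all sGC animals above all controls and 0 genes had them all below, which held for 4.08% and 4.02% of all genes tested. The log2 fold changes were mostly positive, with 46 of 50 above 0 and a median of 0.07, against 0.01 over all genes tested, of which 52.1% were above 0. This median rested on 1 animal. In sGC animal 4 the median deviation from the control mean was 0.30 and 47 of 50 genes were above it, against -0.08 to 0.03 in the other sGC animals, and without it the median log2 fold change was -0.01.

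RPL22 was the gene with the smallest p in F2 females. It was at 61.2, 67.9, 61.1 and 66.1 CPM in controls and at 69.1, 73.8, 70.5 and 83.3 CPM in sGC females. All sGC values were higher (log2 fold change 0.21, SE 0.07, edgeR quasi-likelihood FDR = 0.198), which did not pass the threshold. RPS3, the other gene with an unadjusted p under 0.05, was at 5.36 to 6.41 CPM in controls and 6.06 to 9.28 CPM in sGC females (log2 fold change 0.34, SE 0.15, edgeR quasi-likelihood FDR = 0.300). The groups overlapped, and the highest value was again that of sGC animal 4. RPS28 was at 124 to 185 CPM in controls and at 120 to 219 CPM in sGC females (log2 fold change 0.03, SE 0.17). In the same animal the summed microglia genes were at 315 CPM, against 196 to 251 CPM in the other sGC females and 235 to 265 CPM in controls, and their part in its values was not tested. The 8 oligodendrocyte genes were all higher in F2 sGC females at an unadjusted p under 0.05 (median 1.06, 0 called in edgeR's quasi-likelihood test, other tools not counted), with summed levels of 3319 to 5155 CPM in controls against 4937 to 11706 CPM, and their part was not tested either.

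F3 females were compared to ask about the generation that had no direct exposure as fetus or germ cell. Again no ribosomal protein gene passed (0 of 52 in edgeR's quasi-likelihood and likelihood ratio tests), and DESeq2 called 1, RPL35. The quasi-likelihood test called 1.34% of all genes, 1.07% higher and 0.271% lower. The likelihood ratio test called 3.49% of all genes higher and 1.9% lower, and DESeq2 called 3.84% and 1.69%. At an unadjusted p under 0.05, 8 genes were lower and 0 higher, against 8.07% and 9.2% of all genes tested. The median log2 fold change was -0.11, against -0.01 over all genes tested, and 46 of 52 values were negative. In 4 genes (RPS27A, RPL4, RPS3 and RPL35) every sGC animal was below every control, a separation found in 4.35% of all genes tested, and in 0 genes were they all above (5.95% of all genes tested).

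RPL35 had the smallest p in F3 females. It was at 176, 192, 166 and 192 CPM in controls and at 153, 166, 158 and 147 CPM in sGC females. The highest sGC value was just under the lowest control (log2 fold change -0.22, SE 0.06, edgeR quasi-likelihood FDR = 0.114). RPL4 was at 519, 538, 513 and 551 CPM in controls and at 463 to 503 CPM in sGC females, also without overlap (log2 fold change -0.14, SE 0.05, edgeR quasi-likelihood FDR = 0.186). RPS28, the lowest gene in F1 females, overlapped here at 121 to 234 and 148 to 217 CPM (log2 fold change 0.05, SE 0.19). The controls themselves spread. The median deviation was 0.11 in control 4, with 48 of 52 genes above the control mean, and -0.13 in control 3, with 6 of 52 above it. TYROBP was also highest in control 4 at 24.2 CPM and lowest in control 3 at 20.9 CPM among these controls. The 8 striatal genes were all lower in F3 sGC females (median -0.80, 5 at an unadjusted p under 0.05 and 0 called in edgeR's quasi-likelihood test, other tools not counted), with summed levels of 334 to 1019 CPM in controls against 208 to 475 CPM. SLC17A7 was at 467 to 812 CPM in F3 controls and 933 to 1169 CPM in F3 sGC females, without overlap. The summed cortical excitatory genes did not overlap either, at 2583 to 2926 CPM in controls and 3168 to 3477 CPM in sGC females. The part of these genes in the result was not tested, and tissue makeup cannot be told apart from sGC lineage in these 8 animals.

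F1 males were compared to ask whether the sexes responded alike. In males 0 of 53 ribosomal protein genes passed in edgeR's quasi-likelihood and likelihood ratio tests, and DESeq2 called 1, RPL28. The quasi-likelihood test called 9.22% of all genes, 5.74% higher and 3.48% lower. The likelihood ratio test called 7.0% of all genes higher and 5.23% lower, and DESeq2 called 7.5% and 6.3%. At an unadjusted p under 0.05, 7 genes were higher and 0 lower, against 12.5% and 12.6% of all genes tested. In 0 genes were the sGC males all above or all below the controls, which held for 4.22% and 2.04% of all genes tested. The median log2 fold change was 0.06, against 0.00 over all genes tested, and 45 of 53 values were positive.

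RPL28 was at 125, 108, 121, 110 and 119 CPM in control males, and its lowest, median and highest levels in sGC males were 120, 129 and 143 CPM. The groups overlapped in part (log2 fold change 0.16, SE 0.05, edgeR quasi-likelihood FDR = 0.0726). RPS15 was at 187, 164, 184, 188 and 184 CPM in controls and at 182, 202 and 211 CPM for the lowest, median and highest sGC male, with overlap (log2 fold change 0.14, SE 0.05, edgeR quasi-likelihood FDR = 0.0903). RPS27L was at 1.94 to 2.34 CPM in controls, and in sGC males 4 animals were at 3.12 to 3.57 CPM and 2 were at 2.10 and 2.15 CPM. This paralog had the highest male log2 fold change (0.44, SE 0.16, edgeR quasi-likelihood FDR = 0.109), and without sGC animal 6 it passed (0.52, edgeR quasi-likelihood FDR = 0.0383). RPS28 was at 108 to 172 CPM in controls and 106 to 204 CPM in sGC males (log2 fold change -0.05, SE 0.18). Oligodendrocyte genes rose in 8 of 8 cases in sGC males (edgeR quasi-likelihood FDR under 0.05), and their summed level was 3605 to 6882 CPM in the control males but 7727 to 13239 CPM in the sGC males. Their part in the ribosomal protein values was not tested.

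**Figure D3:**
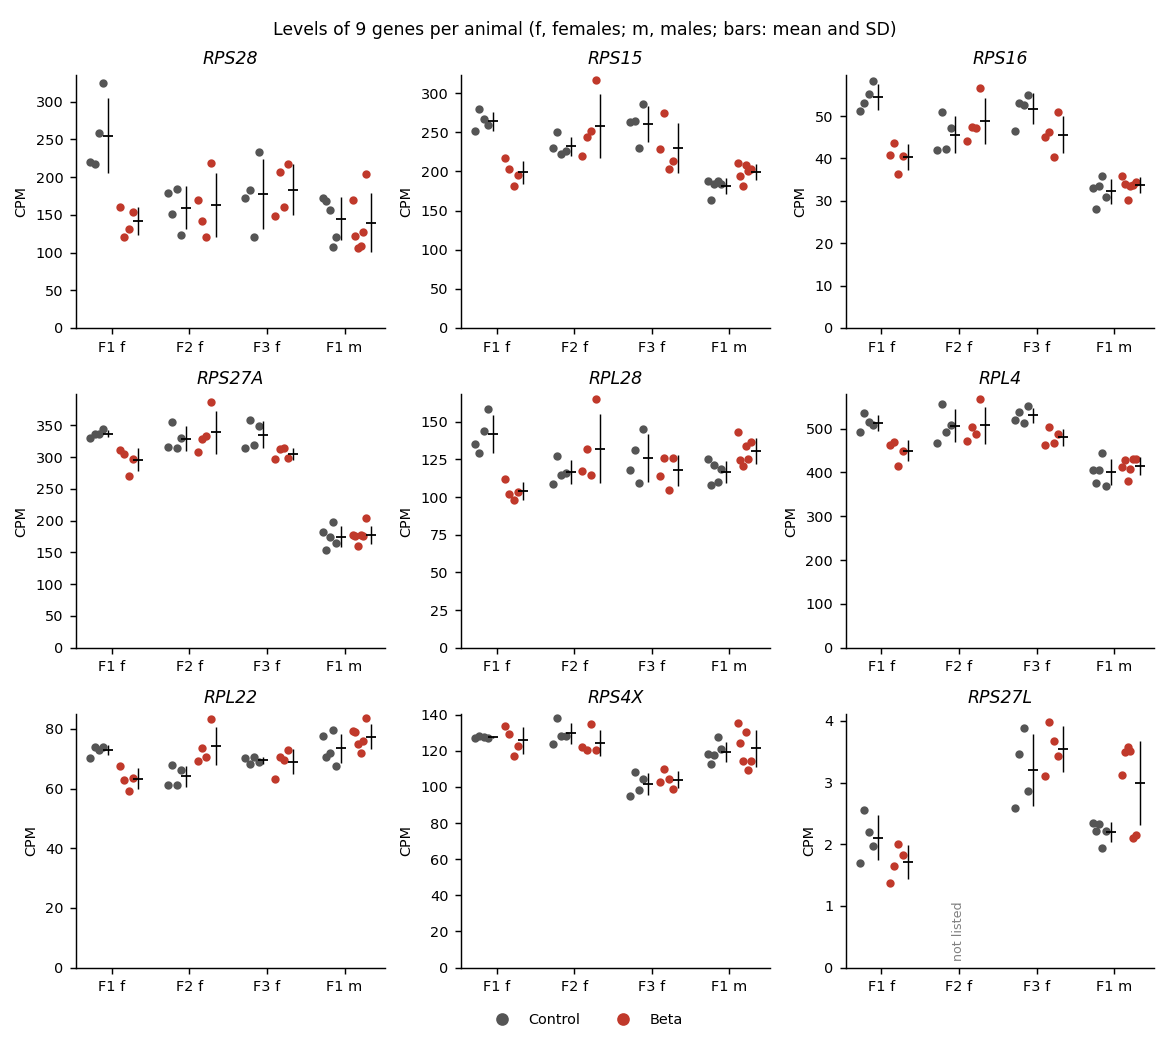
Levels (CPM after TMM scaling within a table) of 9 ribosomal protein genes in each animal, grey for control and red for sGC (Beta), with the mean and SD of each group, for F1, F2 and F3 females (f) and F1 males (m). RPS28, RPS15, RPS16 and RPL28 are separated in F1 females and overlap in the other groups, and RPS4X overlaps in all 4.

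Whether the response differed between groups was then tested directly. Libraries of F1 males held 25697953 to 31763585 reads and those of F1 females 13908007 to 16951061. Sex therefore cannot be told apart from sequencing depth or from how each table was made. Between F1 females and F1 males the response differed in 37 of 52 genes (edgeR quasi-likelihood interaction test, FDR under 0.05), against 31.7% of all 11274 genes tested. In all 37 the male response was the higher one, which was so for 16% of all genes tested. At an unadjusted p under 0.05, 41 genes differed, against 42.2% of all genes tested. The smallest p-values were those of RPS15 (0.54, SE 0.08, edgeR quasi-likelihood FDR = 0.000108) and RPL28 (0.60, SE 0.09, edgeR quasi-likelihood FDR = 0.000149). RPS28 differed by 0.79 (SE 0.26, edgeR quasi-likelihood FDR = 0.0286), RPS27L by 0.73 (SE 0.26, edgeR quasi-likelihood FDR = 0.0411) and RPS3 by 0.55 (SE 0.21, edgeR quasi-likelihood FDR = 0.0485). RPS4X did not pass (0.03, SE 0.08). Leaving out 1 animal at a time gave 27 to 39 genes. Without F1 female controls 1 and 4 it gave 26, against 31.9% of all genes, and without controls 2, 3 and 4 it gave 6, against 12.7% of all genes.

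Between F1 and F2 females the response differed in 15 of 51 genes, against 13.8% of all genes tested, and in all 15 the F2 response was the higher one (6.75% of all genes tested). RPL22, which was lower in every F1 sGC female and higher in every F2 sGC female than in their controls, differed by 0.41 (SE 0.09, edgeR quasi-likelihood FDR = 0.0115). RPS15 differed by 0.56 (SE 0.13), RPL28 by 0.62 (SE 0.14) and RPS16 by 0.52 (SE 0.12), with edgeR quasi-likelihood FDRs of 0.0128, 0.0128 and 0.0143. RPS28 and RPS3 differed by 0.87 and 0.82 (SE 0.25 and 0.23), with edgeR quasi-likelihood FDRs of 0.0323 and 0.0316. The count was 6 without F1 control 3 and without F2 control 3. It was 7 without F1 control 4, 10, 9 and 9 without F1 sGC animals 1, 3 and 4, 9 and 8 without F2 controls 1 and 4, and 8 without F2 sGC animal 4. It was 7 without F1 controls 1 and 4 together, against 17.6% of all genes, and 0 without F1 controls 2, 3 and 4 (edgeR quasi-likelihood test, 11 at an unadjusted p under 0.05, with 1.37% of all genes called).

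Between F1 and F3 females no gene passed (0 of 52 in edgeR's quasi-likelihood and likelihood ratio interaction tests), while DESeq2 called 1, RPS28. The quasi-likelihood test called 0.0981% of all genes, 0.0535% with the F3 response higher and 0.0446% lower. Shares over all genes were not counted for the other interaction tests. At an unadjusted p under 0.05, 6 genes differed (11.5%), all with the F3 response the higher one, against 15.8% of all genes tested. Without F1 controls 1 and 4, and without controls 2, 3 and 4, the edgeR quasi-likelihood count stayed at 0, with 3 and 0 genes at an unadjusted p under 0.05 (22% and 9.65% of all genes). The estimate for RPS28 was 0.88 (SE 0.26, edgeR quasi-likelihood FDR = 0.170), which did not pass the threshold. Between F2 and F3 females 0 of 51 genes passed in either edgeR test or in DESeq2 (0.018% of all genes in the quasi-likelihood test). At an unadjusted p under 0.05, 9 (17.6%) differed, all with the F3 response lower, against 11.5% of all genes tested. RPS3 had the smallest p of these (-0.55, SE 0.17, edgeR quasi-likelihood FDR = 0.263).

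**Figure D4:**
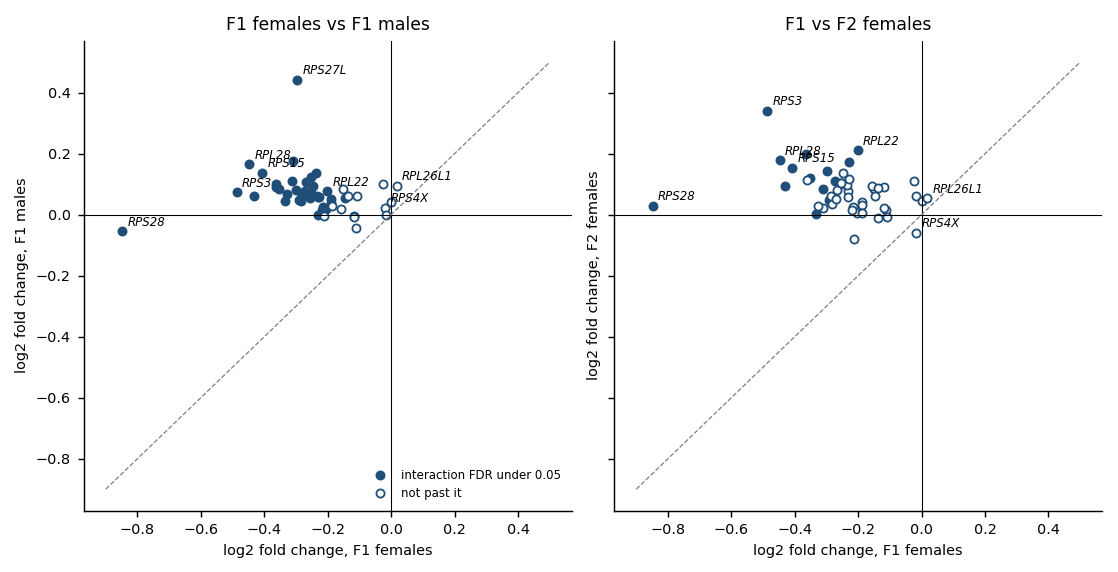
Each point is a ribosomal protein gene, with its log2 fold change (Beta minus Control) in F1 females on the horizontal axis and in F1 males (left) or F2 females (right) on the vertical axis, filled where the interaction FDR was under 0.05, and the dashed line marks equal responses. Nearly all points lie above the dashed line, with a negative F1 female and a positive second value.

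The signs of the 4 responses were shared by most of the genes. Of the 50 genes tested in all 4 tables, 38 (76%) were negative in F1 females, positive in F2 females, negative in F3 females and positive in F1 males, a pattern held by 12.6% of the 10725 genes tested in all 4. This pattern rested in part on F2 sGC animal 4. Without it 19 of 50 genes (38%) held the pattern, against 10.3% of all genes. Without F1 controls 1 and 4 the pattern was held by 38 of 50, against 11.9% of all genes. Without F1 controls 2, 3 and 4 it was held by 36 of 50, against 11.1% of all genes. The 4 tables have separate controls. RPL22L1 was negative in all 4 tables and RPL26L1 positive in all 4. Among the 33 genes that fell in F1 females, 33 were positive in F2 females (median 0.08, but 15 of 33 and a median of -0.01 without F2 sGC animal 4), 32 of 33 were negative in F3 females (median -0.13) and 31 of 33 were positive in F1 males (median 0.07). Across genes, which are not independent replicates, Pearson's r of the log2 fold changes was 0.18 between F1 and F3 females over 51 genes, against 0.51 over all genes tested in both. For F1 and F2 females it was -0.34 over 50 genes, against -0.02 over all genes, and for F2 females and F1 males 0.45 over 50 genes, against 0.51 over all genes. These values are descriptions only.

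Genes that work beside the ribosomal proteins were examined in the same fits, where 9.21% of all genes rose and 7.33% fell in F1 females. Mitochondrial ribosomal proteins, which build a separate ribosome inside mitochondria, had a median of -0.01 in F1 females, with 2 of 69 higher and 1 lower. Of 70 ribosome biogenesis genes 1 rose and 1 fell (median -0.03). NOB1, the nuclease that completes the small subunit rRNA, fell by 0.46 (edgeR quasi-likelihood FDR = 0.00696), and RRP12, a factor for export of precursor subunits, rose by 0.19 (edgeR quasi-likelihood FDR = 0.0372). Of 16 RNA polymerase I subunits 1 fell, POLR2F, which all nuclear RNA polymerases share (-0.30, edgeR quasi-likelihood FDR = 0.0146).

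Translation factors showed other values. Initiation factors had a median of 0.03 in F1 females, with 2 of 22 higher, EIF4A2 (0.22, edgeR quasi-likelihood FDR = 0.0278) and EIF4G3 (0.33, edgeR quasi-likelihood FDR = 0.00887), a helicase and a scaffold of cap recognition. Elongation factors, whose mRNAs carry the TOP motif in most cases, had a median of -0.11 and none of 5 passed (edgeR quasi-likelihood test, 2 lower and 1 higher at an unadjusted p under 0.05; other tools were not counted for this list). Other TOP mRNAs were mixed, with 2 of 6 higher, the cyclin gene CCNI (0.27, edgeR quasi-likelihood FDR = 0.0497) and the nuclear import gene IPO7 (0.33, edgeR quasi-likelihood FDR = 0.00545). In the mTOR list 2 of 27 genes rose, RPTOR (0.28) and LARP1 (0.26), with edgeR quasi-likelihood FDRs of 0.0232 and 0.0254. In the same list 4 fell, the stress-induced inhibitors of mTOR signalling DDIT4 (-0.58), SESN1 (-0.37) and SESN2 (-0.93) and the translation inhibitor PDCD4 (-0.24), with edgeR quasi-likelihood FDRs of 0.0239, 0.0123, 0.0232 and 0.0309. Of the 20 genes called in all these related lists, 13 passed without controls 1 and 4 and 0 passed without controls 2, 3 and 4 (edgeR quasi-likelihood test), and all 20 kept their sign in both.

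FAU and RACK1, ribosomal proteins whose names the rule does not catch, had log2 fold changes of -0.20 and -0.19 in F1 females, with edgeR quasi-likelihood FDRs of 0.0568 and 0.119. Short respiratory chain subunits, which like ribosomal protein mRNAs are small and abundant transcripts, had a median of -0.10 with 4 of 38 lower in F1 females. At an unadjusted p under 0.05 (edgeR quasi-likelihood test), 13 were lower and 0 higher, against 17.8% and 16.4% of all genes tested. Of the 38 values 27 were negative, and in 9 genes every sGC female was below every control (11.2% of all genes tested). In F2 females their median was 0.10 with 37 of 38 values positive and 0 called (edgeR quasi-likelihood test, 1 higher at an unadjusted p under 0.05), in F3 females -0.01 and in F1 males 0.05. Their summed level was also highest in F2 sGC animal 4, at 6610 CPM.

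**Figure D5:**
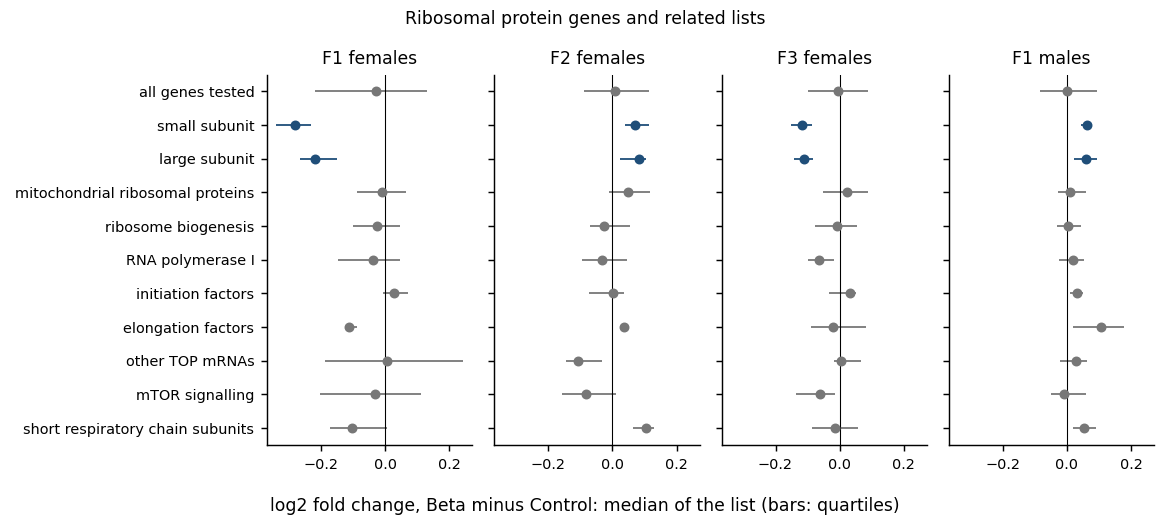
Median log2 fold change (Beta minus Control) with quartile bars for small and large subunit genes (blue) and for all genes tested and related lists (grey), 1 panel for each table. In F1 females the small and large subunit medians of -0.28 and -0.22 are lower than those of all genes tested and of the related lists. Cell type marker lists had F1 female medians from -2.34 (striatal) to 0.93 (cortical excitatory). Oligodendrocyte (-0.72), microglia (-0.49) and endothelial (-0.25) medians lay between these. In the other tables both subunit medians lie closer to 0.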

How the data were processed

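RNA from the prefrontal cortex of 35 guinea pigs was sequenced as single-end reads of poly(A) mRNA, with 1 library per animal. The authors deposited 4 tables of raw counts per gene symbol, for F1, F2 and F3 females and F1 males, made separately. The submitters' processing notes name TopHat2 and edgeR, without versions. The genome build, the counting program and its use of strand are not given in the sources used here. The tables also hold the authors' own fold changes and p-values, which were not used, and 0 count columns were left without a sample.

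Counts were tested per table with edgeR 4.0.16 (R 4.3.3, limma 3.58.1) by the quasi-likelihood test after filterByExpr (minimum count 10, minimum total 15) and TMM scaling. FDR is the Benjamini-Hochberg value over all genes tested, and 0.05 was the threshold. Differences between responses were tested as an interaction over all genes in both tables, with all 4 groups in one fit. Levels are CPM after TMM scaling, and errors of levels and shares are SD over animals. The SE of a log2 fold change or interaction was derived from its size and the F statistic of its test. The p-values weigh a difference between groups against the spread between animals. Alternatives were the likelihood ratio test, DESeq2 1.42.0, other scalings, no filter, a single fit of all 8 groups, a replicate block and leaving out each animal. Figures were drawn with Python 3.11.15, pandas 2.3.3 and matplotlib 3.10.9. The code was tested on simulated data.

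Libraries held 12819964 to 31763585 assigned reads. No pair of libraries was identical. Members, gene lists and the genes named were chosen with earlier results of these data known. Genes were named by rule: a list of members with paralogs, disease links or other known roles, the 3 highest and 3 lowest log2 fold changes among members that passed in a table (the 3 smallest p where fewer than 3 passed), and the 2 smallest p in each interaction. Gene lengths were not used, so levels are not compared between genes. A further gene of the related lists is not reported here.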

Additional observations from a re-analysis of the deposited data

Results flagged for a closer look

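The response to sGC differed between F1 females and F1 males in 37 of 52 ribosomal protein genes (edgeR quasi-likelihood interaction test, FDR under 0.05). The same test called 31.7% of all genes. In all 37 the male log2 fold change was the higher, which was so for 16% of all genes tested. Among the genes named, the male minus female difference was 0.54 for RPS15, 0.60 for RPL28, 0.48 for RPS16, 0.48 for RPL27, 0.43 for RPS20, 0.28 for RPS9, 0.39 for RPS19, 0.27 for RPL22, 0.23 for RPL4, 0.79 for RPS28, 0.73 for RPS27L, 0.28 for RPL35, 0.22 for RPL11 and 0.55 for RPS3. RPS27L, RPL11 and RPS3 had not passed in either sex alone.

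The response differed between F1 and F2 females in 15 of 51 genes by the same test, against 13.8% of all genes tested. In all 15 the F2 value was the higher, which was so for 6.75% of all genes tested. The F2 minus F1 difference was 0.41 for RPL22, 0.56 for RPS15, 0.62 for RPL28, 0.52 for RPS16, 0.47 for RPS20, 0.82 for RPS3, 0.87 for RPS28 and 0.40 for RPS9. Both sets of differences use the F1 females, whose controls 2, 3 and 4 were low in SLC17A7.

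Of 174 groups of values, of named genes and of the share of reads in ribosomal protein genes, 4 held an animal far from the others. Chance gives about 1 in 20. RPL11 was at 255 CPM in F3 sGC female 2, RPL26L1 at 30.5 CPM and RPS4X at 135 CPM in F2 sGC female 3, and RPS15 at 164 CPM in F1 control male 2, the only one of these that was below the rest of its group.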

How the results depend on the processing

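Of the counts and medians recomputed with other tests, scalings and filters, 107 kept their direction and stayed close to the reported value and 5 moved. With the replicate number as a block, 11 genes fell in F1 females (from 33) and 8 differed between F1 and F2 females (from 15). Over all genes the share that fell in F1 females went from 7.33% to 4.09% with the block. The share over all genes that differed between F1 and F2 females with the block was not counted. DESeq2 called 1 gene lower in F3 females, 1 higher in F1 males and 1 different between F1 and F3 females, where 0 had passed. Of all genes, DESeq2 called 1.69% lower in F3 females and 7.5% higher in F1 males. The block changed no other count by over 1.5 times. Same-numbered animals did not deviate together: 5 of 17 pairs correlated over 0.1 and 2 control animals matched best with their own number, so the numbers were not taken to pair the animals. The cause of these shifts was not tested.

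With 1 animal left out, 6 to 30 genes fell in F1 females, 0 to 1 rose in F1 males, 27 to 39 differed between F1 females and males and 6 to 20 between F1 and F2 females. Of all genes, 1.86% fell without F1 female control 3 (6 genes) and 5.83% without F1 sGC female 2 (30 genes). Without sGC male 6 (1 gene), 7.25% of all genes rose. Such shares were not counted for the interactions. Medians ran from -0.25 to -0.20 in F1 females, -0.01 to 0.12 in F2 females, -0.15 to -0.07 in F3 females and 0.03 to 0.09 in F1 males. The F2 median reversed to -0.014 without sGC animal 4.

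In settings added after seeing the data, leaving out F1 female controls 2 to 4 gave 0 genes lower (edgeR quasi-likelihood test, 10 at an unadjusted p under 0.05), 6 different from males and 0 from F2 females. Leaving out controls 1 and 4 gave 8 lower and 7 different from F2 females, against 6.6% and 17.6% of all genes. Without F2 sGC animal 4, 19 of 50 genes held the shared sign pattern, from 38. Single genes had as few as 3 reads in an animal, where counting error is largest.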

Other observations

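In F1 males, EEF1D, a subunit of the elongation factor complex that reloads EEF1A, rose by 0.18 on the log2 scale (edgeR quasi-likelihood FDR = 0.0188) and MRPL58, a peptide release factor built into the mitochondrial ribosome, rose by 0.20 (edgeR quasi-likelihood FDR = 0.0246). RPS19BP1 had log2 fold changes between -0.00 and 0.04 in all 4 tables. SLC17A7 did not overlap between the groups in F3 females, with 467 to 812 CPM in controls and 933 to 1169 CPM in sGC animals.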
